A study of Zea mays with 16 samples.

Results

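The Mu killer samples of this experiment are anthers of maize plants that carry the Mu killer locus, a dominant silencer of Mutator transposons, collected at 2 lengths, 2 mm and 1 mm. They were chosen as every sample of the Mu killer line, which gave 8 of the 16 samples, 4 at 2 mm and 4 at 1 mm. The other 8 samples were anthers of Mu active siblings at the same lengths, and they enter here only where the stage change of Mu killer anthers was set against theirs. By the study's methods, both lines came from ears that segregated for Mu killer in a background with many Mutator copies and the bz2-mu2 reporter, Mu killer plants were grown from bronze kernels and Mu active plants from spotted ones, and the locus was scored by PCR, while the extent of silencing in each sample is not given in the sources used here. Each sample pooled 15 to 20 anthers, so a sample is a mixture of all anther cell types, and fewer cells of a type and less RNA per cell cannot be told apart.

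RNA was labelled with Cy3 or Cy5 and hybridised to Agilent maize oligonucleotide arrays, with both lines on every array. The titles give both colours of an array the same line. Here the Cy3 samples kept the line of their title and each Cy5 sample was taken as the other line, so at either stage Mu killer RNA carried Cy3 in the first pair of replicates (1 and 2) and Cy5 in the last pair (3 and 4). Dye and replicate pair therefore cannot be told apart within Mu killer. This reading has no independent proof of direction. In it, both probes for the transcript TC313692, picked out after values were seen, split the samples by line, with log2 levels of 6.39 to 8.96 in the 8 Mu killer samples and 10.94 to 13.21 in the 8 Mu active samples. Each stage had a slide of its own that held its 4 arrays, and therefore stage and slide cannot be told apart in any level given here.

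Mu killer is a rearranged piece of a Mutator element with a partial inverted copy of mudrA, the transposase gene of MuDR, and it was first proposed to act through a hairpin RNA. The study of these samples found short antisense transcripts in plants that silenced MuDR, and presumes that small RNAs from them target mudrA. It leaves hairpins from longer transcripts as a possible contribution. MuDR is the autonomous element of the family, and its mudrA and mudrB genes read inward from the terminal inverted repeats called TIRA and TIRB. Mu killer carries TIRA at both of its ends. A maize anther of 1 mm is still dividing by mitosis and laying down its wall layers, whereas at 2 mm the meiocytes are in prophase I and the tapetum around them is highly active in secretion. The cohesin ring, built on the SMC1 and SMC3 proteins and closed by a RAD21-type subunit, holds sister chromatids together through these divisions. AM1 is required in maize for cells to enter meiosis, and shugoshin SGO1 protects cohesin at centromeres.

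Each array held 42034 maize probes with 39174 transcript identifiers. Of these identifiers 2 matched the RefSeq maize gene table as written and 4 matched once a leading Zm was dropped, so most transcripts are given by identifier without a gene name. The markers fixed for tapetum, anther wall, meiocytes, late pollen and leaf had no probe paired by name other than AM1, so the labelled tissue could not be checked by its markers. A probe counted as well above background where the scanner software placed it more than 2.6 SD over the background. Between 33387 and 37898 probes passed in a Mu killer sample, and no spot was saturated.

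The stages separated clearly across the 8 samples. The first principal component held 43.8% of the variance over 36291 tested probes, those well above background in at least 4 of the 8 samples, and it placed the 2 mm samples at 38.4 to 69.5 and the 1 mm samples at -77.0 to -34.3. The second, with 17.7%, ran within the stages, and 2 mm replicate 2 at -68.2 and 2 mm replicate 3 at 54.3 lay farthest apart on it. Correlations of log2 levels across probes, which are not independent, had a median of 0.963 among the 2 mm samples and 0.966 among the 1 mm samples, and of 0.935 between samples of different stages. The highest correlation between stages, 0.961, exceeded the lowest within a stage, 0.938 at 2 mm.

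**Figure D1:**
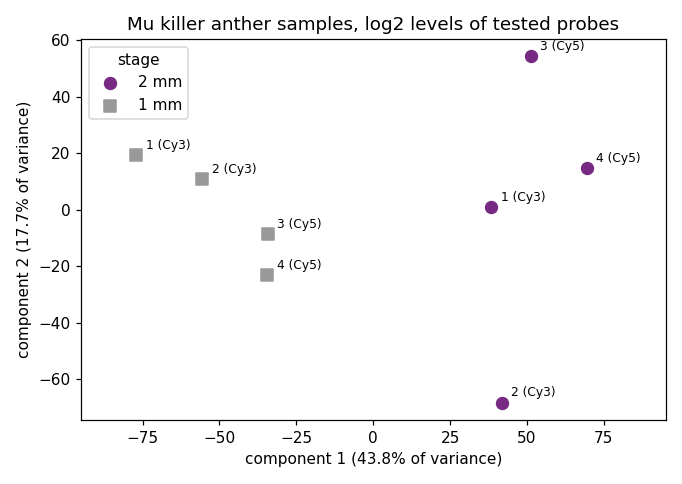
Position of the 8 Mu killer samples on the first and second principal components of normalised log2 levels (component scores), with circles for 2 mm and squares for 1 mm, labelled by replicate and dye. The stages lie on either side of 0 on component 1, and 2 mm replicates 2 and 3 lie at the ends of component 2.

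At 2 mm, 1780 probes were higher and 1661 were lower than at 1 mm in Mu killer anthers, with a 1.5-fold or larger change and a Benjamini-Hochberg adjusted p under 0.05 in limma's moderated test. These 3441 probes are 9.48% of those tested, 4.9% for higher and 4.58% for lower. The adjusted p alone was passed by 4453 probes (12.3%), and an unadjusted p under 0.05 with the fold limit by 5530 (15.2%). The count of 3441 was lower by over 1.5 times without 2 mm replicate 1 (1708) or 4 (1742) or 1 mm replicate 1 (1770), 3 (1899) or 4 (1996), and was 4403 without 2 mm replicate 3. The level of the higher set, as the median over its probes, was 9.92 to 10.22 on the log2 scale in the 4 samples at 2 mm, against 8.52 to 8.96 in the 4 samples at 1 mm. For the lower set it was 8.76 to 8.998 at 2 mm, against 9.81 to 10.24 at 1 mm. These medians describe the sets the test chose, and in neither set did those of the stages overlap. Probe by probe, the samples of the stages did not overlap for 1651 of the 1780 higher probes and 1523 of the 1661 lower ones, while 20.5% of all probes with 8 values had samples that did not overlap, 10.6% higher and 9.81% lower at 2 mm.

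The balance of rises and falls depended on the scaling of the arrays. Under quantile-type scaling 51.7% of the changed probes were higher at 2 mm, whereas the share was 61.9% on the scanner's processed signals set to the 75th percentile, 28.4% of 1023 probes with median centring, and 0.958% of 9189 probes with scaling to the spiked control RNA. Against the spike-ins the median change of all tested probes was -0.84 on the log2 scale, and with median centring it was 0.12, against -0.0034 with the quantile-type scaling. The 10 spike-ins of the Agilent control mix were themselves brighter at 2 mm, by a median of 0.58 in Cy3 and 0.28 in Cy5 on the log2 scale. The maize signal before scaling was background-corrected and taken as the median over probes well above background in all 8 samples. It changed by -0.92 in Cy3 and -0.81 in Cy5. In Cy5 the 2 mm samples were split, with replicate 3 at 8.40 and replicate 4 at 7.07, against 8.26 and 8.83 at 1 mm. Changes below are relative to the bulk of the transcripts. By the study's methods fixed amounts of total RNA were labelled and fixed amounts of labelled RNA were hybridised. The signals therefore do not measure total RNA per anther. Whether the shift against the spike-ins came from the samples, their labelling or the slides cannot be told apart.

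Rises reached far larger sizes than falls. A fold of at least 2 was passed by 918 higher and 602 lower probes, at least 4 by 175 and 48, at least 8 by 47 and 9, and at least 16 by 20 and 2. At 32-fold or more there were 13 higher probes and no lower one, and 7 of the 13 passed 64-fold. Against the spike-ins, where all changes shift down, 11 probes still rose and 17 fell by at least 16-fold, so the excess of very large rises did not hold under that scaling. The median change was 1.02 for the higher set and -0.89 for the lower set on the log2 scale. The 20 probes at least 16-fold higher had mean log2 levels of 11.11 to 16.55 at 2 mm and 6.53 to 9.91 at 1 mm, and all 20 had stages that did not overlap. They varied more at 2 mm, with a median SD of 0.82 there and of 0.24 at 1 mm.

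**Figure D2:**
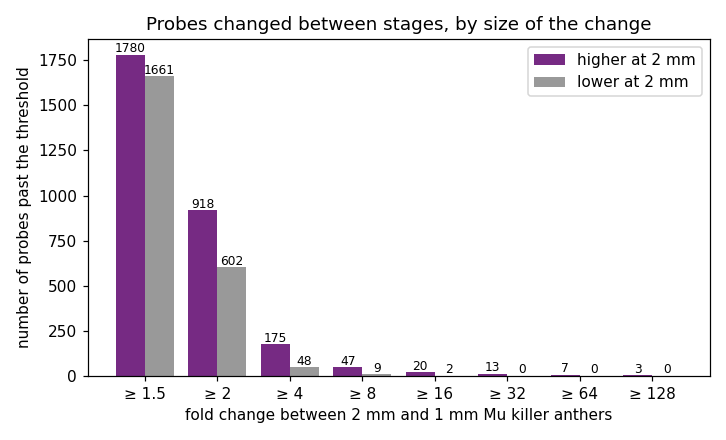
Number of probes past the threshold (vertical axis) by the smallest fold change they reached between 2 mm and 1 mm Mu killer anthers (horizontal axis, each class includes those to its right), higher at 2 mm in purple and lower in grey. The counts are 1780 and 1661 at 1.5-fold and 20 and 2 at 16-fold.

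The largest rise was that of TC295184 (probe A_92_P022640), at 14.60, 13.74, 16.27 and 16.10 on the log2 scale in the samples at 2 mm, against 6.99, 7.09, 7.17 and 7.08 at 1 mm. All 4 samples at 1 mm lay together close to the lower end of the scale, and those at 2 mm were high, with replicates 3 and 4 (Cy5) above replicates 1 and 2 (Cy3). The change was 8.09 ± 0.40 (SE, n = 4 each; limma adjusted p = 0.00036), a 273-fold rise. The size of this rise depended on the processing, with a change of 6.96 against the spike-ins, 8.93 with an offset of 0 and 10.40 on the processed signals. TC291473 (A_92_P021732) was second, at 16.55, 15.77, 17.17 and 16.70 at 2 mm, against 8.40, 8.75, 9.53 and 9.19 at 1 mm. Its change was 7.58 ± 0.21 (SE, n = 4 each; limma adjusted p = 3.54e-05), a 191-fold rise, and it was alike in Cy3, 7.59, and Cy5, 7.57. Neither of these rises lost its call in any of the 29 alternatives.

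The largest fall was that of TC313390 (A_92_P029165), which stood at 9.16, 10.04, 8.82 and 8.40 at 2 mm, against 13.71, 14.08, 12.85 and 13.61 at 1 mm. The stages were far apart, and all 8 samples were well above background, so the transcript was reduced and not lost. It fell by 4.46 ± 0.26 on the log2 scale (SE, n = 4 each; limma adjusted p = 0.00065), 22.0-fold. TC314183 (A_92_P035423) stood at 12.93, 14.02, 12.13 and 10.81 at 2 mm, against 16.28, 15.33, 17.27 and 17.71 at 1 mm. It fell by 4.18 ± 0.79 (SE, n = 4 each; limma adjusted p = 0.0215), with a change of -2.33 in the Cy3 samples and -6.02 in the Cy5 samples. Its call was lost without 2 mm replicate 1 or 1 mm replicate 1, 3 or 4 (adjusted p = 0.0572, 0.0548, 0.0604 and 0.0547).

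**Figure D3:**
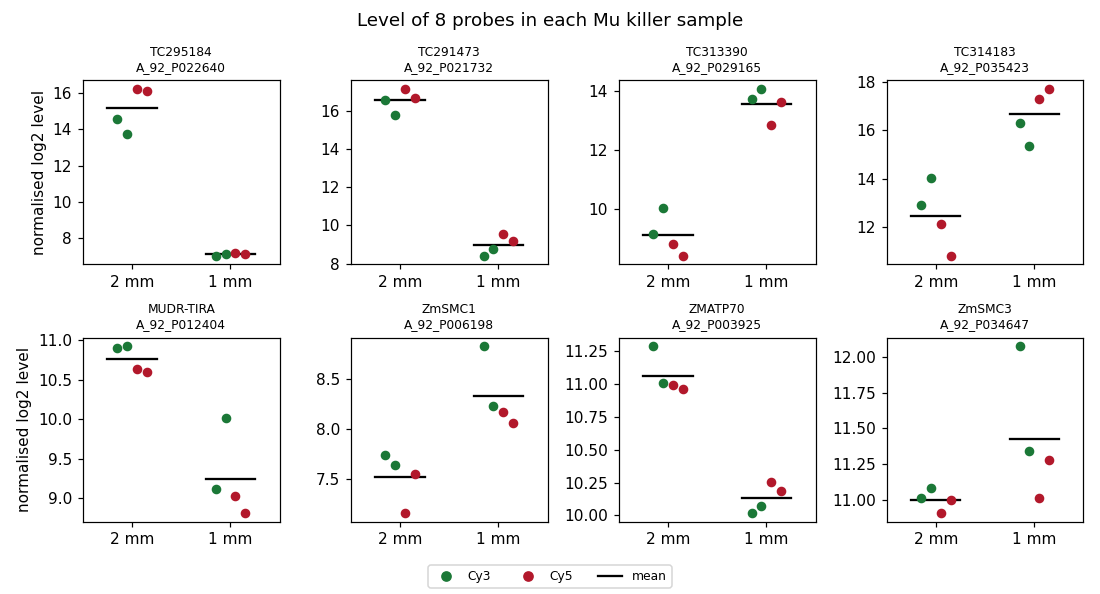
Normalised log2 level (vertical axis) of 8 probes in each of the 4 samples at 2 mm and the 4 at 1 mm, coloured by dye, with the mean of each stage as a line. Each panel has its own range, and all but the ZmSMC3 panel show stages that do not overlap.

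Of the 4 probes whose identifiers name MuDR, the one named for the TIRA end rose. MUDR-TIRA (A_92_P012404) stood at 10.90, 10.93, 10.63 and 10.60 at 2 mm, against 9.12, 10.01, 9.03 and 8.80 at 1 mm, so the stages did not overlap, and 1 mm replicate 2 was the nearest to the 2 mm samples. Its change was 1.53 ± 0.20 (SE, n = 4 each; limma adjusted p = 0.0074), 2.88-fold. It kept its direction under each scaling, but against the spike-ins the change was 0.15 (adjusted p = 0.747) and with median centring 1.11 (adjusted p = 0.0814).

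The other MuDR probes did not pass. MUDRA-21 (A_92_P019862), a mudrA probe, stood at 8.95, 9.14, 8.49 and 8.93 at 2 mm, against 8.41, 7.90, 8.43 and 8.37 at 1 mm. Its stages did not overlap, but the change of 0.60 ± 0.18 did not pass (SE, n = 4 each; limma adjusted p = 0.0785). It passed without 2 mm replicate 3, at 0.74 (adjusted p = 0.0324). The other mudrA probe, MUDRA (A_92_P031891), had a change of 0.19 with an interval of -0.05 to 0.43. MUDRB (A_92_P034510), for the gene of the second MuDR protein, had a change of 0.45 with an interval of -0.04 to 0.94. Against the spike-ins these 3 probes had changes of -0.60, -0.94 and -0.79.

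The MuDR probes differed in how they stood between the lines, and none of 8 comparisons, 4 probes at 2 stages, could pass with 4 arrays (smallest possible two-sided exact permutation p 0.125, flipping signs over arrays). At 2 mm MUDRA-21 averaged 8.87 ± 0.27 in Mu killer anthers, against 8.58 ± 0.53 in Mu active ones, and at 1 mm it averaged 8.28 ± 0.25 in Mu killer anthers, against 8.54 ± 0.43 in Mu active ones (SD, n = 4 each). For MUDRA the means at 2 mm were 8.44 for Mu killer and 8.24 for Mu active, and those at 1 mm were 8.25 for Mu killer and 8.24 for Mu active. Within arrays MUDRA-21 was higher in Mu killer on 4 of 4 arrays at 2 mm, by a mean of 0.30 ± 0.46, and lower on 3 of 4 at 1 mm, by a mean difference of -0.27 ± 0.38 (SD). The mudrA probes thus had no one direction between the lines and give no check of the line labels. By RT-PCR the study found mudrA transcripts lost in most Mu killer plants it tested from bronze kernels. The study also states that every maize line carries defective MuDR copies that are transcribed, and Mu killer itself holds part of mudrA. Where the probes lie in the genes is not given in the sources used here, so whether they read MuDR alone was not tested.

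MUDRB and MUDR-TIRA each had lines that did not overlap at 1 of the stages, with the Mu killer samples below. The share of all probes with lines that do not overlap was not computed, so this is a description of these probes alone. At 1 mm MUDRB ranged from 8.37 to 8.90 in Mu killer anthers, below the 9.004 to 9.42 of Mu active anthers, and it was lower on 4 of 4 arrays, with a mean difference of -0.50 ± 0.40 (SD; exact permutation p = 0.125, adjusted over the 8 comparisons 0.333). At 2 mm its ranges overlapped, 8.67 to 9.42 for Mu killer and 8.63 to 9.60 for Mu active. At 2 mm MUDR-TIRA ranged from 10.60 to 10.93 in Mu killer anthers, below the 11.22 to 12.44 of Mu active anthers, and it was lower on 4 of 4 arrays, with a mean difference of -0.96 ± 0.53 (SD; exact permutation p = 0.125, adjusted 0.333). At 1 mm its ranges overlapped, 8.80 to 10.01 for Mu killer and 8.88 to 10.80 for Mu active.

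The meiotic list, 29 genes of recombination and the chromosome axis, had 4 genes paired with 10 probes, of which 0 rose and 1 fell, against 4.9% higher and 4.58% lower over all probes, so 1 of 10 is near the share of all probes. The median change over these probes was -0.19, against -0.0034 over all probes tested. With spike-in scaling 0 of the 10 rose and 4 fell, against 0.242% higher and 25.1% lower over all probes, and the medians were -1.004 for the list and -0.84 for all probes. Of the pair of probes for ZmSMC1, a core subunit of cohesin, 1 fell. A_92_P006198 stood at 7.74, 7.64, 7.16 and 7.55 at 2 mm, against 8.82, 8.23, 8.17 and 8.06 at 1 mm, a gap that left no overlap. It fell by 0.80 ± 0.15 (SE, n = 4 each; limma adjusted p = 0.0219), 1.74-fold, and the call was lost without 2 mm replicate 1 or 2 or 1 mm replicate 3 or 4 (adjusted p = 0.0617, 0.0553, 0.0603 and 0.0531). It was also lost with median centring and on the processed signals, where the changes were -0.76 and -1.02 (adjusted p = 0.109 and 0.0529).

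The second ZmSMC1 probe (A_92_P041560) stood at 7.81, 7.77, 7.75 and 7.49 at 2 mm, against 9.22, 8.64, 7.94 and 8.04 at 1 mm. These stages did not overlap either, but the 1 mm samples were split, with replicates 1 and 2 (Cy3) high and replicates 3 and 4 (Cy5) close to the 2 mm range. Its change was -0.75 ± 0.20 (SE, n = 4 each; limma adjusted p = 0.0536). It passed in 9 of 29 alternatives, among them without 2 mm replicate 3, where the change was -0.88 (adjusted p = 0.0357). Against the spike-ins the ZmSMC1 probes had changes of -1.71 and -1.77, beside a median of -0.84 over all probes.

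The partner of SMC1 in the ring, ZmSMC3, had 4 probes and none passed. The brightest, A_92_P034647, stood at 11.01, 11.08, 10.90 and 10.998 at 2 mm, against 12.08, 11.34, 11.01 and 11.28 at 1 mm. The 2 mm samples were tightly grouped, and 1 mm replicate 3 fell among them. Its change was -0.43 with an interval of -0.87 to 0.01 (limma adjusted p = 0.174), and the other 3 probes had changes of -0.28, -0.10 and 0.15. Of these 4 probes the brightest fell by 1.80 against the spike-ins (adjusted p = 0.0096).

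AM1 had 3 probes. A_92_P001166 stood at 7.84, 8.06, 7.72 and 7.53 at 2 mm, against 8.41, 7.89, 8.53 and 8.29 at 1 mm, where replicate 2 overlapped the 2 mm samples. Its change was -0.49 with an interval of -0.91 to -0.08 (limma adjusted p = 0.112), and without 1 mm replicate 2 it was -0.66 (adjusted p = 0.0424). The other AM1 probes were near the lower end of the scale, with changes of -0.02 and 0.01. ZmSGO1 (A_92_P014134) had a change of -0.11 with an interval of -0.38 to 0.16.

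For ZmRAD21, the kleisin that closes the ring, the 7 probes were named after their values were seen. All were dim, with mean levels of 6.75 to 7.18 at 2 mm and 6.64 to 7.09 at 1 mm, and 0 of 7 passed. Their changes ran from -0.09 to 0.16. An offset of 50 added before taking logs draws such dim probes toward 0, so a change of ordinary size may not be detectable at this brightness. With tested probes split by mean level into 4 classes of equal size, 0.0772% of the dimmest class were called, and 3.75%, 14.7% and 19.4% of the brighter classes in order.

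**Figure D4:**
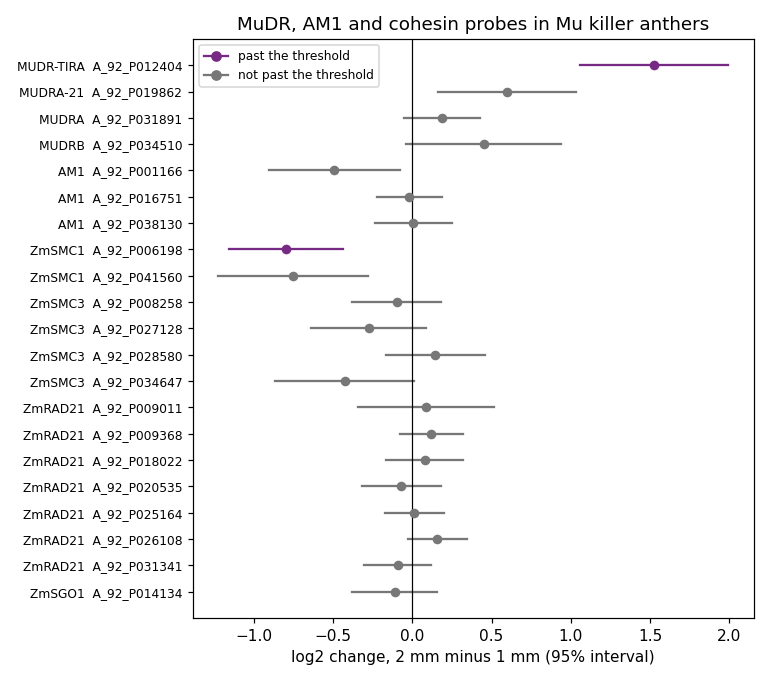
Change between 2 mm and 1 mm Mu killer anthers on the log2 scale (horizontal axis, point with 95% interval of the fit) for each MuDR, AM1, cohesin and SGO1 probe, purple where the adjusted threshold and the 1.5-fold limit were passed. MUDR-TIRA at 1.53 lies above 0, the ZmSMC1 probes lie below 0, and 19 of the 21 probes are not past the threshold.

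Of the other probes that carry a gene-like name, ZMATP70 (A_92_P003925) rose. It stood at 11.29, 11.01, 10.99 and 10.97 at 2 mm, against 10.02, 10.07, 10.26 and 10.19 at 1 mm. The stages were well apart, with a change of 0.93 ± 0.11 (SE, n = 4 each; limma adjusted p = 0.0058), 1.91-fold, but against the spike-ins the change was -0.44 (adjusted p = 0.381). AI676903 (A_92_P012084), with overlapping stages, had a change of -0.29 (adjusted p = 0.294). Both were named after their values were seen.

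Probes above background at only 1 of the stages were few under a strict rule. Well above background in all 4 samples at 2 mm and in none at 1 mm were 10 probes, 0.0238% of 42034, and the reverse held for 88 probes, 0.209%. With 3 or 4 samples of one stage against at most 1 of the other, the numbers were 242 for 2 mm and 1068 for 1 mm. A transcript below background has only an upper limit, so the folds of these probes are lower bounds in that respect. They hold no margin for the spread between samples. Each bound sets the mean of the bright stage against, for each dim sample, the higher of its own value and the lowest value well above background. That lowest value is taken over all probes of the sample, and for the probes named here the bound equalled the measured fold or lay close to it. TC313969 (A_92_P021598) stood at 11.29, 10.76, 12.84 and 13.00 at 2 mm and was not well above background at 1 mm, with measured levels of 6.49 to 6.70. Its bound was 42.5-fold higher at 2 mm. The measured change was 5.41 on the log2 scale (limma adjusted p = 0.0011), with a 95% interval of 4.56 to 6.26, and it was 4.28 against the spike-ins.

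The other bounds were small. AW566110 (A_92_P001556) was at 7.49, 7.32, 8.04 and 8.46 at 2 mm and not well above background at 1 mm, with measured levels of 6.43 to 6.59. Its bound was 2.52-fold higher at 2 mm, close to the measured 2.53-fold. The measured log2 change had a limma adjusted p = 0.0114 and a 95% interval of 0.86 to 1.82, which reaches below the bound. The AW566110 call was lost against the spike-ins, at 0.44 (limma adjusted p = 0.438), and with median centring, at 1.40 (limma adjusted p = 0.0596). It was also lost in each dye alone. Among the 88 probes seen only at 1 mm, the largest bound was that of TC280517 (A_92_P011421). This transcript was not well above background at 2 mm, with measured levels of 6.54 to 6.69, against 7.09, 7.51, 8.09 and 7.28 at 1 mm. The bound was 1.83-fold lower at 2 mm, the same as the measured fold. The measured log2 change had a limma adjusted p = 0.0403 and a 95% interval of -1.37 to -0.38, which reaches smaller changes than the bound. CO459091 (A_92_P010112), next in order, measured 6.63 to 6.84 at 2 mm, not well above background, against 8.43 and 8.54 in Cy3 and 6.34 and 6.74 in Cy5 at 1 mm. Its stages overlapped, and the change of -0.80 had an interval of -1.63 to 0.04 (limma adjusted p = 0.183), so no bound is given for it. The median bound was 1.23 for the 10 probes and 1.14 for the 88. The TC280517 call was lost without any 1 sample other than 1 mm replicate 3, with adjusted p up to 0.108.

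The number of probes well above background was 33632, 34058, 34615 and 36488 in the samples at 2 mm, against 33387, 34950, 37898 and 37604 at 1 mm. The range at 2 mm lay within that at 1 mm. The means were 34698.2 ± 1259 at 2 mm and 35959.8 ± 2168 at 1 mm (SD, n = 4 each; two-sided exact permutation p = 0.314, smallest possible 0.0286). With 5 SD in place of 2.6, the count was 19118 to 21388 at 2 mm and 23835 to 26226 at 1 mm, a mean difference of -4546 (two-sided exact permutation p = 0.0286, the smallest possible). Probes over 5 SD were thus fewer at 2 mm, and maize signals before scaling were dimmer there on average, though not in every sample, as given above. The part of the slide in this was not tested.

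The dyes gave the same directions. All 1780 higher and all 1661 lower probes had the same sign in the Cy3 pair and the Cy5 pair of samples, which is partly set by their choice in the joint fit, and 1381 and 1205 of them changed by at least 1.5-fold in each dye. Over all tested probes 25100 of 36291 had the same sign, with a correlation of the changes across probes of 0.491. The median change of the higher set was 1.06 in Cy3 and 0.92 in Cy5, and that of the lower set -0.99 in Cy3 and -0.81 in Cy5. Among the 20 largest rises the order was mostly the reverse, with a larger change in the Cy5 samples, which are replicates 3 and 4, for 16. Fitted alone with 2 samples a stage, Cy3 called 80 probes and Cy5 called 306.

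Different probes for the same transcript often disagreed in whether they passed. Of 1943 transcripts with several tested probes, 365 had at least 1 that changed. All probes of the transcript were called the same way for 51, and 8 had probes called in opposite directions. For 264 of the 365, or 72.3%, all probes shared the sign. Probes for assembled transcripts (identifiers with TC) were called in 11.2% of cases, with 1317 higher and 1473 lower. Probes whose identifiers begin with neither TC nor MAGI, gene names among them, were called in 5.71%, with 455 higher and 179 lower. Of the probes in these classes 91.8% and 76.4% were tested, and the classes were not matched by level.

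The stage change of Mu killer anthers was then set against that of Mu active anthers, within each array, where the slide cancels. No probe of 35813 passed for the difference at an adjusted p under 0.05 (0%), and 720 (2.01%) had an unadjusted p under 0.05 in limma's moderated test, 307 with a larger log2 change in Mu killer and 413 with a smaller one. Leaving out 2 mm replicate 3 raised that unadjusted count to 4062, still with 0 after adjustment. On the same probes and rule, 3441 were called in Mu killer and 2120 (5.84%) in Mu active anthers. Of the probes called in Mu killer, 632 of the 1780 higher and 764 of the 1661 lower ones were called in the same direction in Mu active anthers, and 0 in the opposite one.

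The 3441 probes had the same sign of change in both lines in 99.6% of cases, while 81.8% of all tested probes did. They were chosen for a large change in Mu killer, so a smaller change in Mu active is built into this set, and both lines shared arrays and slides. The median change of the higher set was 1.02 for Mu killer and 0.72 for Mu active, and that of the lower set -0.89 for Mu killer and -0.81 for Mu active. The 20 largest rises had changes of 3.08 to 7.45 in Mu active anthers, and 19 of them were called there.

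**Figure D5:**
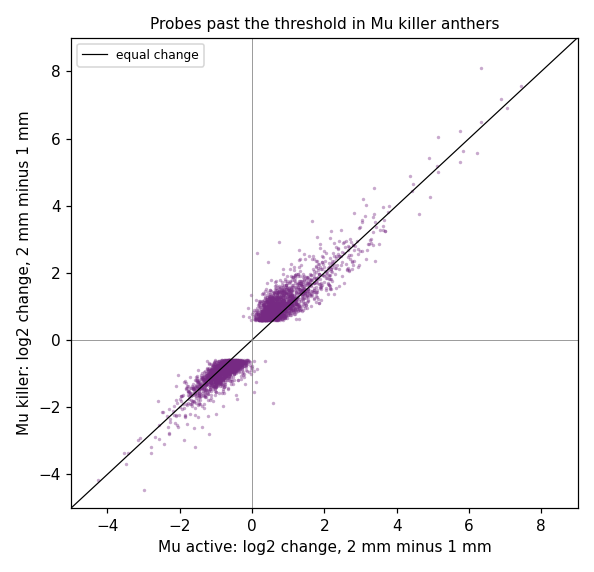
Change between 2 mm and 1 mm on the log2 scale in Mu killer anthers (vertical axis) and Mu active anthers (horizontal axis) for the 3441 probes past the threshold in Mu killer, with the line of equal change. Probes below 1.5-fold in Mu killer are absent by construction, and nearly all points lie in the quadrants where both lines changed the same way.

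The samples on an array also varied together to some extent at 2 mm, with values that overlapped those at 1 mm. After removing each group's mean, the Mu killer sample of an array correlated with the Mu active sample of the same array across probes at 0.21, 0.52, 0.28 and 0.17 for 2 mm replicates 1 to 4, against -0.05, 0.18, 0.05 and 0.16 at 1 mm. The closest match with another array's Mu active sample was 0.01, 0.29, 0.47 and 0.09 for 2 mm replicates 1 to 4. For replicate 3 it was thus closer than the match on its own array. At 1 mm these closest matches were 0.07, 0.04, 0.06 and 0.13. TC295184 gave an example, at 12.16, 11.71, 14.42 and 15.54 in Mu active anthers at 2 mm, with replicates 3 and 4 high as in Mu killer, although they carried Cy3 there and Cy5 in Mu killer. Whether this came from the arrays or from the timing of the collections was not tested.

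The probes with the smallest p for a difference between the lines all had an adjusted p of 0.9999 (limma). TC300040 (A_92_P008013) stood at 9.48, 9.24, 10.90 and 9.55 at 2 mm, against 6.49, 6.83, 7.84 and 7.65 at 1 mm, in Mu killer anthers. In Mu active anthers it was at 6.48, 6.48, 8.48 and 6.03 at 2 mm, against 7.04, 6.61, 6.33 and 6.96 at 1 mm, and it was well above background in 1 of 4 Mu active samples at 2 mm and 3 of 4 at 1 mm. Thus it rose in Mu killer by 2.59 ± 0.28 (SE, n = 4 each; limma adjusted p = 0.0048) while its measured change in Mu active, mostly near background, was 0.13 (adjusted p = 0.912). The measured difference of 2.46 ± 0.39 (SE; unadjusted p = 0.00042) did not pass over all probes, and it was 3.81 with an offset of 0.

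TC315357 (A_92_P032389) had a change of -0.10 in Mu killer, against -0.72 in Mu active, a difference of 0.63 ± 0.12 (SE). On the other side, TC305883 (A_92_P038445) had changes of -0.73 in Mu killer, against -0.06 in Mu active, and CO458690 (A_92_P001602) of -0.91 in Mu killer, against 0.065 in Mu active, differences of -0.67 ± 0.11 and -0.98 ± 0.17 (SE). All 4 of these were picked for the smallest p of their difference, so their sizes are a description. MUDR-TIRA changed by 1.53 in Mu killer, against 1.91 in Mu active, with a difference of -0.38 ± 0.46 (SE; limma adjusted p = 0.9999).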

How the data were processed

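Gene expression was measured on 8 dual-colour Agilent maize arrays holding 16 samples. The authors extracted spots with Feature Extraction 9.5.3.1, and the deposited values are the mean intensity and local background intensity of each spot and colour, the processed intensity, and flags for spots well above background, saturated or outlying. The authors also deposited normalized intensities per channel, for which the processing notes name limma and the methods refer to an earlier paper, with further steps not given in the sources used here. These served as an alternative. Within each stage of Mu killer their columns followed the scanner files in mirrored replicate order (1 with 4, 2 with 3), at correlations of 0.9986 to 0.9996. Each column thus matched a channel of the other dye, but the groups were kept. Which of the files has the right replicate numbers and dyes is not settled.

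For each sample's own channel, background was removed by normexp (offset 50), and values were normalised by loess within arrays and Aquantile between them and taken as log2 levels (limma 3.58.1, R 4.3.3). Between 1 and 10 outlier spots per sample were left out. The model held stage and dye. Probes entered the test if 4 or more of the 8 Mu killer samples had them well above background, and a call needed a Benjamini-Hochberg adjusted p under 0.05 and a fold of at least 1.5. The difference between lines used ratios within arrays, turned to Mu killer over Mu active. The fit was tested on simulated data. The number of arrays limits the precision. The methods call the replicates biological, and which plants they came from is not given in the sources used here.

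The Mu killer samples, gene lists and tests were chosen with earlier results of these data known. Named probes were every MuDR probe, list members with a probe, and the 2 largest in each direction among called non-overlapping probes and among the bounds, and the 2 in each direction with the smallest p for the difference from Mu active. Of 9 lists, only the meiotic list had members paired with probes. The 8 others (tapetum, small RNA, cell cycle, histones, flavonoid, housekeeping, late pollen, leaf) had 0. Figures used Python 3.11.15 and matplotlib 3.10.9.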

Additional observations from a re-analysis of the deposited data

Results flagged for a closer look

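Among 72 groups of 4 samples checked, 4 held a sample whose gap to its nearest neighbour was over 0.829 of the group's range. Chance flags about 1 group in 20, so this is near what chance gives. The log2 level of MUDRA-21 (A_92_P019862) was 7.90 in 1 mm replicate 2, while the other 1 mm samples lay at 8.37 to 8.43. ZmSMC3 (A_92_P008258) was 7.26 in 1 mm replicate 3 and 7.43 to 7.46 in the others. ZmRAD21 (A_92_P009011) was 6.63 in 2 mm replicate 1 and 7.35 to 7.37 in the others. ZMATP70 (A_92_P003925) was 11.29 in 2 mm replicate 1 and 10.97 to 11.01 in the others, all of them above the 1 mm samples.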

How the results depend on the processing

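The count of 3441 changed probes moved by over 1.5 times under median centring (1023), spike-in scaling (9189), Cy3 samples alone (80), Cy5 samples alone (306), the opposite reading of the lines (2108), an unadjusted p (5530), a fold of at least 2 (1520) and, added after seeing the data, without 2 mm replicate 2 and 1 mm replicate 1 (1189). Without 1 replicate it was 1708 to 4403, lowest without 2 mm replicate 1 and highest without 2 mm replicate 3, and 1742, 1770, 1899 and 1996 without 2 mm replicate 4 and 1 mm replicates 1, 3 and 4. Fewer samples enter these last fits, and for the rest the cause was not tested. With the replicate number as a block the count was 2043. Same-numbered samples of the stages did not deviate together (correlations of 0.03, -0.11, -0.10 and -0.07). Differently numbered samples ran from -0.24 to 0.26. Among them, 1 mm replicates 1, 3, 2 and 4 had 0.18, 0.18, 0.19 and 0.26 with 2 mm replicates 3, 1, 4 and 2. Since the replicate numbers are not settled, these values cannot show whether samples were paired across stages, which was not tested. The median of the meiotic list was -1.004 with spike-in scaling. The difference between the lines called 0 probes under each alternative run, and 720 at an unadjusted p, added after seeing the data. The difference in probes well above background, -1262 on average, was -4546 at 5 SD and -2119 to -615.4 without 1 replicate. Probes seen in all samples of only 1 stage numbered 98, 1310 with 3 or 4 samples against at most 1, 47 with the opposite reading, and 130 to 229 without 1 replicate. With an offset of 0 the largest bounds were 132.2 and 3.74. ZMATP70 reversed with spike-in scaling (-0.44), and CO458690 with the opposite reading (0.065). MUDR-TIRA lost its call in 4 of 29 alternatives, ZmSMC1 (A_92_P006198) in 11, TC314183 in 7 and ZMATP70 in 6 besides its reversal. Spots near background limit what dim probes can show.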
